A study of Mus musculus with 4 samples.

Results

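NR6A1, also called germ cell nuclear factor, was mapped by chromatin immunoprecipitation and sequencing (ChIP-seq), and described here are the genomic sites that both NR6A1 replicates listed but scored very differently. Each peak of replicate 1 was paired with the replicate 2 peak it overlapped most, by at least 1 bp. Of 9190 such pairs, 736, or 8.01%, were chosen by their peak scores, which differed 4-fold or more. In 376 pairs the replicate 1 score was the higher, which is 4.09% of all pairs, and in 360 the replicate 2 score was the higher, or 3.92%. These shares are set by the rule, which used the scores of both lists, and no test is attached to them.

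NR6A1 is an orphan nuclear receptor, that is, one with no established ligand. It binds DNA as a homodimer at direct repeats of the nuclear receptor half-site with no spacer, and is known as a repressor of transcription, of Pou5f1 in the early embryo among other genes. In adult animals it is best known from germ cells, and the series title names its gene as a target of the let-7 microRNAs.

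The cells were immortalized mesenchymal stem cells of the C57BL/6 mouse strain, grown from 1 clone and carrying floxed alleles of Dicer (Dicer f/f), an enzyme that makes mature microRNAs. The labels call them Dicer WT. For the NR6A1 group, cells were infected with the retrovirus pMMP-puro-Flag-HA-NR6A1 and kept under puromycin, and the tagged protein was recovered with an anti-HA antibody. The protein was thus expressed from a retrovirus in 1 monoclonal line. The labels give 2 replicates of this group, without saying whether they were separate cultures, and 2 of cells with the empty vector, which are not analysed here.

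The deposited lists held 21507 peaks for replicate 1 and 16160 for replicate 2 on the mouse build mm9. Each peak carries a score by the authors, which was taken as a log-transformed p-value of the peak caller, higher for stronger evidence. Scores began at 200.01 and 200.04, and 239 and 187 peaks were tied at exactly 3100, which acts as a ceiling for nearly all peaks. A score depends on the depth and background of its own library, neither of which is known from the lists. A 4-fold difference in score is therefore not a 4-fold difference in binding. Across all pairs the log2 ratio of the scores had a median of 0.00, so neither list scored higher over the pairs as a whole. The medians over pairs were 521 in replicate 1 and 518 in replicate 2. Genes and DNA sequence at these positions were not analysed here for want of a genome and gene models on mm9.

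In the pairs with replicate 1 higher, the replicate 1 score ran from 821 to 3181 with a median of 1734, while the replicate 2 score ran from 200.2 to 770 with a median of 277. In the pairs with replicate 2 higher, the replicate 2 score ran from 831 to 3196 with a median of 1759, and the replicate 1 score from 201 to 753 with a median of 297. The directions were thus near mirror images in score. A rule alike in both directions, and the like minimum and ceiling of the lists, largely set this. The ratio had a median of 5.40 where replicate 1 was higher and 5.33 where replicate 2 was, with highest values of 15.2 and 14.1. Since the lists begin at 200, a pair can reach 4-fold only if its higher score is at least 800.

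**Figure D1:**
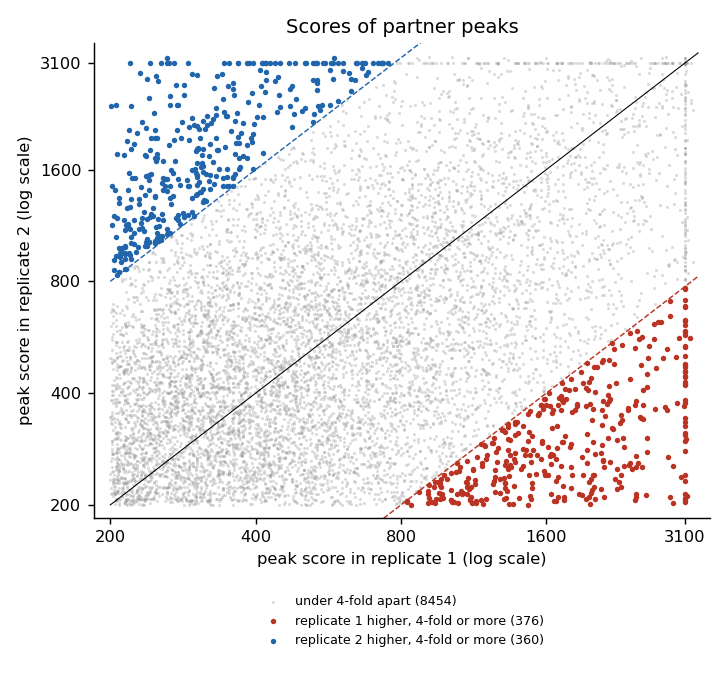
Score of each partner peak in replicate 1 (horizontal, log scale) against replicate 2 (vertical, log scale) for 9190 pairs, with the 376 pairs higher in replicate 1 in red, the 360 higher in replicate 2 in blue and the others in grey. The solid line marks equal scores and the dashed lines 4-fold, and the points lined up at 3100 are the tied scores.

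Discordance was not limited to middling peaks. Of pairs with a replicate 1 score from 800 to below 1200, 5.43% had a replicate 2 score lower by 4-fold or more (95% Wilson interval 4.31 to 6.81%). The share was 16.5% from 1200 to below 2000 (14.3 to 18.9%), 23.9% from 2000 to below 3100 (20.1 to 28.1%) and 21.6% at 3100 or more (16.4 to 28.0%). Read from replicate 2, the same steps gave 6.15%, 14.6%, 24.2% and 20.9%. So 42 of the 194 pairs at or above 3100 in replicate 1, and 47 of the 225 in replicate 2, had a partner 4-fold lower or more. The list minimum holds down every step, and the lowest most, since it leaves little room below a score of 800 to 1200. The ceiling of 3100 limits the ratios of the top step. The shares rest on the scores that the rule used, so nothing is read from their rise. The intervals, here and below, cover counting error over pairs and not the spread between cultures, and they treat pairs as independent. The lower partner often lay close to that minimum. It was under 300 in 217 of the 376 pairs with replicate 1 higher, or 57.7%, and in 182 of the 360 with replicate 2 higher, or 50.6%, against 35.4% of all pairs. A member's lower score is at most 0.25 of its higher one by the rule, so a low value was fixed by the selection and nothing is read from these shares.

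The 6 pairs with the largest ratio in favour of replicate 1 were on chromosomes 6, 17, 14, 11, 4 and 8. At 100594567 to 100595353 on chromosome 6 the replicate 1 peak scored 3100 and its partner, at 100594666 to 100595167, scored 203. The chromosome 17 peak at 46016211 to 46017279 came next, and the scores were 3100 and 206. On chromosome 14 at 47131029 to 47132268 they were 3100 and 209. In each of these pairs the whole replicate 2 peak overlapped the replicate 1 peak, so the sites coincide although the scores differ 14.8-fold or more. Their higher scores sat at the ceiling of 3100, and between the list minimum and that ceiling the largest ratio possible is 15.5. The others were at 44724738 to 44725877 on chromosome 11, with 3127.6 and 212, at 150158434 to 150159699 on chromosome 4, with 3100 and 214, and at 36454448 to 36456151 on chromosome 8, with 2929 and 203. Their replicate 2 peaks were 392 to 648 bp wide, against 787 to 1704 bp in replicate 1.

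In favour of replicate 2, the first pair was on chromosome 8, where the replicate 1 peak at 35823582 to 35824062 scored 220 and the replicate 2 peak at 35823365 to 35824430 scored 3100. It was followed by 17732901 to 17734308 on chromosome 16 in replicate 2, with 241 in replicate 1 and 3100 in replicate 2. On chromosome 15 the replicate 2 peak at 25571846 to 25573705 scored 2905 against 230. Unlike the first pair, these replicate 2 peaks of 1408 and 1860 bp each covered a further replicate 1 peak, a kind of pair described below. The remaining sites were at 95083503 to 95084247 on chromosome 4, with 263 and 3196, at 112874513 to 112876418 on chromosome 6, with 255 and 3100, and at 117842029 to 117842774 on chromosome 7, with 201 and 2377. The chromosome 6 peak also covered 2 replicate 1 peaks.

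The discordant pairs with the best lower score were far above the list minimum in both replicates. Replicate 1 scored 3100 and replicate 2 scored 770 at 63708278 to 63709248 of chromosome 18. At 167225107 to 167225684 of chromosome 2, replicate 1 scored 753 and replicate 2 scored 3100. At the 4-fold limit the pairs shaded into the rest. Just inside were a pair on chromosome 8 (73988031 to 73989139), with 2189 in replicate 1 and 546 in replicate 2, and a pair on chromosome 2 (117493571 to 117494363), with 872 and 217. Just outside were pairs on chromosome 14 (51819074 to 51819909), with 1302 and 326, and chromosome 17 (79124771 to 79125801), with 2424 and 607. In the other direction the nearest inside were on chromosome 15 (5483591 to 5484020), with 216 and 863, and chromosome 10 (89208964 to 89209505), with 359 and 1441.5. The nearest outside were on chromosome 13 (52754496 to 52755092), with 409 and 1634, and chromosome 5 (104382209 to 104382846), with 265.5 and 1058.

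Width changed sides with the score. With replicate 1 higher, its peak had a median width of 857 bp against 589 bp for its partner, a median ratio of 1.42, and was the wider of the pair in 355 of 376 cases. With replicate 2 higher, the medians were 494 bp in replicate 1 and 902.5 bp in replicate 2, a ratio of 0.54, and the replicate 1 peak was the wider in 1 of 360. Pairs within 2-fold had 561 and 653 bp and a ratio of 0.87, so the replicate 2 peak was usually the wider there. Set against that ratio, the widths leaned toward the higher list in either direction.

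Each partner was about as wide as peaks of like score in its own list. Replicate 1 peaks of 1322 to 2367, the middle 50% of scores where replicate 1 was higher, had a median of 854 bp in the 189 discordant pairs and 832 bp in 494 pairs within 2-fold. Their replicate 2 partners, in contrast, measured 589 bp against 879.5 bp. The low replicate 2 partners themselves, at scores of 230 to 372, were 583.5 bp wide, against 570.0 bp in 1687 pairs within 2-fold at those scores. The mirror held for replicate 2 peaks of 1312 to 2524, with 846 bp in discordant pairs and 867 bp in 552 pairs within 2-fold, and for low replicate 1 partners, with 484.5 and 492 bp. Width and score come from the same lists, so these are descriptions.

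**Figure D2:**
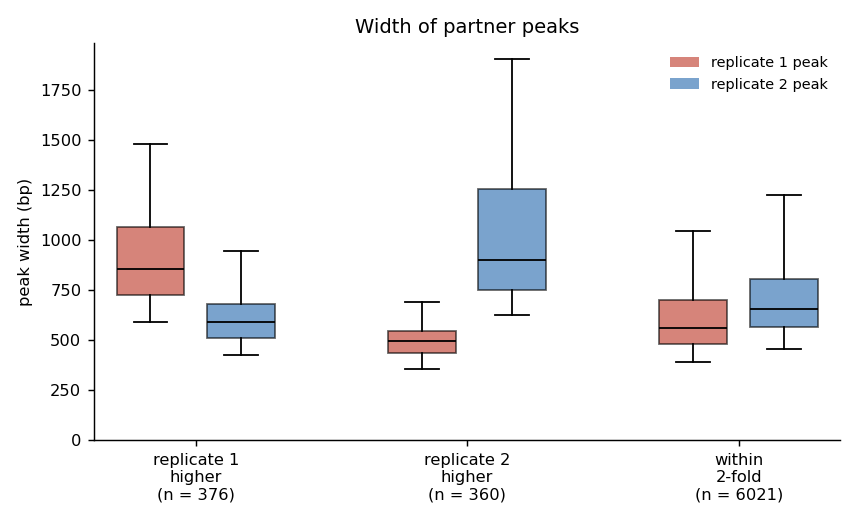
Width in bp of the replicate 1 peak (red) and the replicate 2 peak (blue) in pairs with replicate 1 higher, with replicate 2 higher and within 2-fold. Boxes span the quartiles with the median as a line, and whiskers reach the 5 and 95% points. The wider box is on the side of the higher score, with medians of 857 against 589 bp and of 494 against 902.5 bp.

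In both directions the narrow peak mostly lay within the broad one. The replicate 2 peak was contained in the replicate 1 peak in 292 of 376 pairs, or 77.7%, where replicate 1 was higher. Where replicate 2 was higher, the replicate 1 peak was contained in 342 of 360. Midpoints lay a median of 63.2 bp and 71.5 bp apart, against 33.5 bp in pairs within 2-fold. Midpoints within 100 bp were found for 64.9% (59.9 to 69.5%) and 57.2% (52.1 to 62.2%), against 85.8% within 2-fold. A reciprocal overlap of 50% was reached by 85.4% (81.4 to 88.6%) where replicate 1 was higher, but by 57.5% (52.3 to 62.5%) where replicate 2 was, against 96.0% of pairs within 2-fold.

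The directions differed in how often several peaks shared a partner. Where replicate 2 was higher, 78 of 360 pairs, or 21.7% (17.7 to 26.2%), had a replicate 2 peak that was also the partner of another replicate 1 peak. Where replicate 1 was higher, 2 of 376 did. By the pairing rule a replicate 2 peak can serve several replicate 1 peaks, but not the reverse, and so the rule itself enters this difference. In the lists as such, 174 replicate 2 peaks overlapped 2 or more replicate 1 peaks and 32 replicate 1 peaks overlapped 2 or more of replicate 2. The 78 pairs fell on 67 replicate 2 peaks, 924 to 4353 bp wide with a median of 1497 bp. On 58 of those 67 peaks another replicate 1 peak came within 4-fold of the replicate 2 score, and on 9 none did. A large part of these 78 were thus small replicate 1 peaks beside a stronger one, under 1 broad replicate 2 peak. Removing them left 282 pairs with a replicate 2 peak of their own, whose median width ratio was 0.60 and of which 73.0% reached the reciprocal overlap.

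The widest such case was on chromosome 4, where 1 replicate 2 peak at 94716557 to 94720909 scored 2393. Under it lay 4 replicate 1 peaks with scores of 206, 893, 856 and 276 from left to right. The outer 2, at 94716587 to 94717025 and 94719712 to 94720233, were discordant at 11.6-fold and 8.68-fold, and the inner 2 were 2.68-fold and 2.79-fold below. The same stretch therefore held 1 strong broad peak in a list and a row of narrower ones in the other.

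Discordant pairs of both directions occurred on chromosome X and on all 19 autosomes. More were replicate 1 higher on 8 of the 20 chromosomes and more replicate 2 higher on 11. Chromosome 1 had 31 with replicate 1 higher, 5.02% of its pairs (3.56 to 7.03%), against 14 with replicate 2 higher, 2.27% (1.35 to 3.77%). Chromosome 10 had 38 and 21, or 5.81% (4.26 to 7.88%) and 3.21% (2.11 to 4.86%). Chromosomes 3 and 4 went the other way, with 21 and 36 and with 22 and 37. On chromosome 4 the shares were 3.53% (2.34 to 5.28%) and 5.93% (4.33 to 8.07%). Chromosome 7 and chromosome 11 had few in either direction, at 2.29 to 2.61% of their pairs. The intervals of the directions overlapped on each of the 20 chromosomes.

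**Figure D3:**
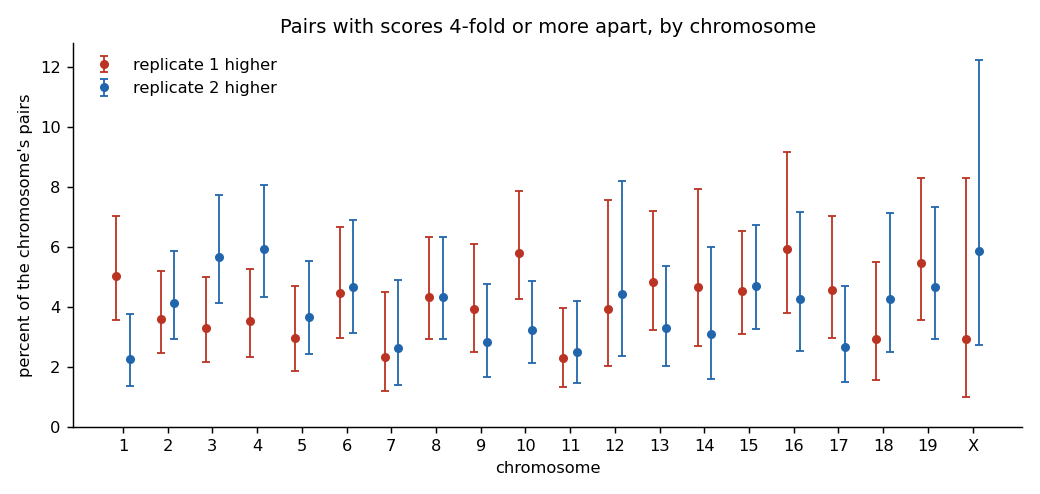
Percent of each chromosome's pairs that were discordant with replicate 1 higher (red) or replicate 2 higher (blue), with 95% Wilson intervals as bars. Red lies above blue on chromosomes 1 and 10 and below it on 3 and 4, and the bars of the colours overlap throughout.

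Most discordant pairs had no other of their direction nearby. Each direction is a small part of all pairs, 4.09% and 3.92%, so this is largely given by their number. Linked at gaps of at most 50 kb, 343 of the 376 with replicate 1 higher stood alone, or 91.2%, as did 315 of the 360 with replicate 2 higher, or 87.5%. A pair of the same direction lay within 50 kb for 31 of the 376, or 8.24% (5.87 to 11.5%), and for 45 of the 360, or 12.5% (9.47 to 16.3%). Once neighbours that share a replicate 2 peak were left out, the second value was 25, or 6.94% (4.75 to 10.0%), so the order of the directions turned. Pairs of the opposite direction lay within 50 kb for 11 in each case. Leaving out shared peaks, same-direction neighbours were counted within 5 kb, at 5 to 10 kb and at 10 to 50 kb. Each couple of discordant pairs was counted from both of its ends. For replicate 1 higher these neighbours numbered 6, 4 and 24 around the 376. The 6021 pairs within 2-fold had 50, 36 and 216 such neighbours, fewer per pair at each step. For replicate 2 higher the counts were 0, 10 and 16 around the 360, against 52, 48 and 209. That is fewer per pair within 5 kb and more beyond. These differences were not tested. Discordant pairs were not gathered in dense stretches of shared sites. In clusters of 3 or more shared regions with gaps of at most 10 kb lay 43 of the 376 (11.4%) and 40 of the 360 (11.1%), against 11.1% of all pairs.

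The group with the most members was on chromosome 10 at 99236785 to 99252836, where 3 pairs with replicate 1 higher lay within 16.1 kb. Their replicate 1 scores were 3100, 3100 and 2460, and their replicate 2 scores were 763, 443 and 589. No other pair and no peak without a partner lay among them. It was the 1 group of 3 in its direction. The most compact of the 15 groups of 2 was on chromosome 8 at 108669170 to 108672664, where replicate 1 gave 1464 and 1834 and replicate 2 gave 351 and 412. The next, on chromosome 5 at 24690152 to 24694117, had 3100 and 2225 against 335 and 235. In these 3 places every pair listed favoured replicate 1.

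For replicate 2 the group with the most members was on chromosome 15 at 59242948 to 59280758, with 3 pairs on 2 replicate 2 peaks. The peak at 59279189 to 59280758 scored 3100 over 2 replicate 1 peaks of 645 and 420. The other replicate 2 peak, of 1139, covered replicate 1 peaks of 280 and 844, of which the second was within 2-fold. The most compact of the 21 groups of 2, at 10125291 to 10126460 of chromosome 3, was 1 replicate 2 peak of 2052 over 2 replicate 1 peaks. So was the next, at 84174360 to 84175656 of chromosome 9, with a replicate 2 score of 2349. Counted by distinct replicate 2 peaks, a choice made after the values were seen, no group held more than 2, and the most compact was on chromosome 11 at 112862120 to 112870463. Its scores were 272 and 224 in replicate 1 and 1690 and 1171 in replicate 2.

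Opposite directions also met at short range. There were 11 groups of 1 pair of each direction, of which the 2 most compact are given. On chromosome 6 a pair with scores of 1141 in replicate 1 and 233 in replicate 2 lay beside a pair with 296 and 1233, both within 3.30 kb at 117444672 to 117447968. On chromosome 2, at 71209841 to 71213182, a pair with 245 and 1200 preceded one with 1730 and 296 within 3.34 kb.

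**Figure D4:**
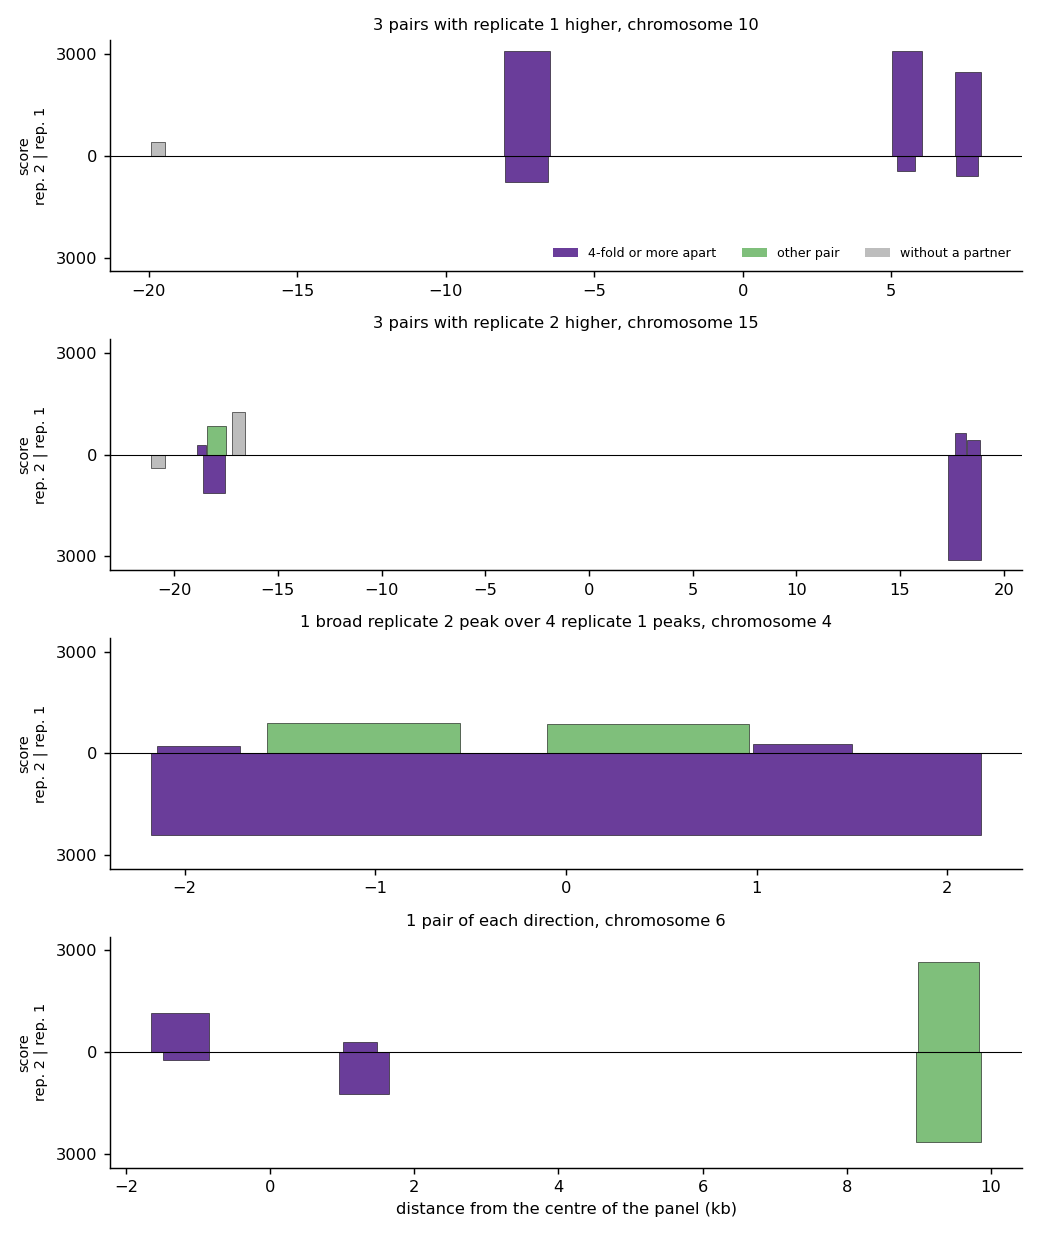
Peaks of replicate 1 (upward, by score) and replicate 2 (downward, by score) against distance in kb in 4 stretches, with discordant peaks in purple, other paired peaks in green and peaks without a partner in grey, including listed peaks up to 20 kb to either side. A replicate 2 peak is purple if any of its pairs is discordant. The top panel shows 3 tall replicate 1 peaks over short replicate 2 peaks, the third shows 4 replicate 1 peaks over 1 broad replicate 2 peak, and the bottom panel shows 2 neighbouring pairs that lean opposite ways.

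Along whole chromosomes the directions followed each other in little order. The nearest other discordant pair leaned the same way for 202 of the 376 with replicate 1 higher, or 53.7% (48.7 to 58.7%), where that direction is 51.1% of all discordant pairs. With replicate 2 higher it was 181 of 360, or 50.3% (45.1 to 55.4%), beside 48.9%. When neighbours that share a peak were left out, it was 169, or 46.9%, for replicate 2 higher and still 202 for replicate 1 higher. Of 716 steps from a discordant pair to the next, with shared peaks included, 50.1% kept the direction. These neighbours were mostly far away, and at short range the picture differed. Leaving out pairs that share a peak, discordant neighbours within 50 kb of pairs with replicate 1 higher leaned the same way in 34 cases and the opposite way in 11, counted from each pair. Around replicate 2 higher these were 26 and 11. A couple of like direction was thus counted from both of its ends, here and at the longer distances. The couples of opposite direction are the same ones in both counts. From 50 to 200 kb the counts were 64 and 37 for replicate 1 but 24 and 37 for replicate 2, so there the likeness was seen for replicate 1 alone. That difference was not tested. From 200 to 1000 kb they were 154 and 128, and 106 and 128.

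Pairs under 4-fold leaned toward the same list as a discordant neighbour, by a small margin. A pair is said to lean to the list in which its score was higher. The nearest such pair leaned to replicate 1 for 228 of the 376 with replicate 1 higher, or 60.6% (55.6 to 65.4%), where 49.8% of all such pairs with unequal scores did. For replicate 2 higher it leaned to replicate 2 in 236 of 360, or 65.6% (60.5 to 70.3%), and in 211, or 58.6%, when neighbours that share a peak were left out. By distance, around replicate 1 higher, 67.1% of those pairs leaned to replicate 1 within 5 kb (55.7 to 76.8%, 73 pairs), 62.5% at 5 to 10 kb (49.4 to 74.0%, 56 pairs), 57.7% at 10 to 50 kb (52.1 to 63.2%), 56.0% at 50 to 200 kb (52.8 to 59.2%) and 50.2% at 200 to 1000 kb (48.5 to 51.9%). Around replicate 2 higher the share leaning to replicate 1 was 44.9% within 5 kb (33.8 to 56.6%, 69 pairs), 50.8% at 5 to 10 kb (38.8 to 62.7%), 43.9% at 10 to 50 kb (38.6 to 49.5%), 45.5% at 50 to 200 kb (42.2 to 48.8%) and 49.6% at 200 to 1000 kb. The values fell with distance for replicate 1 higher. They had no such order for replicate 2 higher below 200 kb. The intervals at 5 to 10 kb and at 200 to 1000 kb include 50% in both directions, and that within 5 kb does for replicate 2 higher.

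The clearest leaning was in peaks found in 1 list without a partner, whose scores did not enter the rule. The same lists and the same pairing decide which peaks have no partner, so these peaks are not independent evidence. There were 12317 of them in replicate 1 and 7118 in replicate 2. Within 50 kb of pairs with replicate 1 higher, 752 such peaks were from replicate 1 and 238 from replicate 2, so replicate 1 gave 76.0% (73.2 to 78.5%). Around pairs with replicate 2 higher the numbers were 348 and 366, or 48.7% (45.1 to 52.4%), and around all pairs 60.7% (60.0 to 61.3%). Peaks near several pairs were counted for each, and the intervals treat every count as separate, so they are too narrow. The 752 and 348 counts of replicate 1 peaks came from 707 and 326 peaks. Around all pairs 12612 came from 6549. The contrast was steeper close by. Within 5 kb replicate 1 gave 85.6% around replicate 1 higher (79.0 to 90.4%) and 35.7% around replicate 2 higher (26.9 to 45.6%), against 54.5% around pairs within 2-fold. At 200 to 1000 kb the 3 values were 66.9%, 64.4% and 64.4%.

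**Figure D5:**
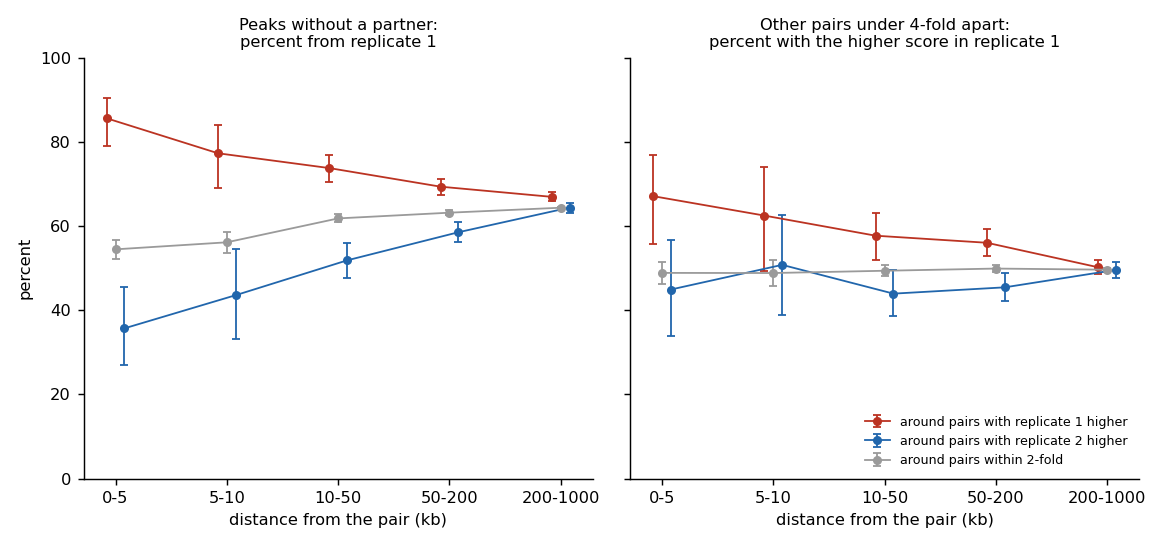
Neighbours by distance in kb from pairs with replicate 1 higher (red), with replicate 2 higher (blue) and within 2-fold (grey), with 95% Wilson intervals. Left, percent of the peaks without a partner that came from replicate 1, from 85.6% and 35.7% within 5 kb to 66.9% and 64.4% at 200 to 1000 kb. Right, percent of other pairs under 4-fold that leaned to replicate 1, with neighbours that share a peak left out. Neighbours of several pairs were counted for each, so the intervals are too narrow.

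The surplus was made up of more peaks from the favoured list and of fewer from the other. Within 50 kb the 376 pairs with replicate 1 higher had on average 0.633 replicate 2 peaks without a partner each, against 1.02 for replicate 2 higher and 0.890 for all pairs. At least 1 unpartnered replicate 1 peak lay within that distance for 79.3% of replicate 1 higher and 53.1% of replicate 2 higher, against 65.2% of all pairs. The number of other pairs within 50 kb differed less, at 1.27 and 1.59 against 1.45 for all. It includes other pairs on the same replicate 2 peak, which 2 of the 376 and 78 of the 360 had.

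The same was seen in the next region on either side, whatever its distance. With overlapping peaks of both lists merged into regions, the neighbours of pairs with replicate 1 higher were in replicate 1 only in 54.8% of 752 cases, in replicate 2 only in 15.2% and in both in 30.1%. For replicate 2 higher these were 29.4%, 33.7% and 36.9% of 697, and for all pairs 39.5%, 25.7% and 34.8%. Sites flanked on both sides by regions of replicate 1 only made up 119 of 376, or 31.6%, where replicate 1 was higher, and 32 of 348, or 9.20%, where replicate 2 was. Flanking by regions of replicate 2 only on both sides was found at 7, or 1.86%, and at 43, or 12.4%. Over all pairs these were 17.3% and 7.50%.

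Within chromosomes the contrast in unpartnered peaks held on 19 of 20. Chromosome 14 was the exception, with 15 from replicate 1 and 12 from replicate 2 around replicate 1 higher, and 7 and 3 around replicate 2 higher. Some of the 19 rest on few peaks, as on chromosome X, with 3 and 2 and with 1 and 1. Set against all pairs of the chromosome, the replicate 1 share was above on 19 for replicate 1 higher and below on 17 for replicate 2 higher. Without peaks in runs of 8 or more consecutive regions of 1 list, the shares over all chromosomes were 74.9% and 47.5%. Few unpartnered replicate 2 peaks were strong near either direction. Near replicate 1 higher, 4 of 228 scored 1000 or more, or 1.75%, a share that rests on 4 peaks. Near replicate 2 higher 21 of 339 did, or 6.19%. The share was 3.39% of unpartnered replicate 2 peaks near any pair and 3.93% of all of them. Unpartnered replicate 1 peaks scored 1000 or more in 99 of 707 cases near replicate 1 higher and in 40 of 326, or 12.3%, near replicate 2 higher. Among all such peaks the share was 10.5%, so strong ones were not scarcer near the latter. With 1 list for each replicate, no test across samples is possible for any of these differences.

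The longest stretch of successive pairs leaning to replicate 1 with a discordant pair in it was on chromosome 10 at 82800251 to 84470769. It held 13 pairs, 3 of them discordant, with a median log2 ratio of 1.34, and 43 unpartnered peaks of replicate 1 against 5 of replicate 2. For replicate 2 it was on chromosome 8 at 117182140 to 119813371, with 18 pairs, 2 of them discordant, and a median log2 ratio of -0.94. There 24 unpartnered peaks were from replicate 1 and 14 from replicate 2, or 63.2% from replicate 1, beside 63.4% of all unpartnered peaks. No 1-Mb window held more than 3 discordant pairs of 1 direction. For replicate 1, 9 windows tied at 3, and for replicate 2, 5 did. The 3 given for each are the first of the tied windows by chromosome name. For replicate 1 they were 186 to 187 Mb on chromosome 1, 37 to 38 Mb on chromosome 10 and 95 to 96 Mb on chromosome 10, with 13, 5 and 14 pairs and 19, 19 and 20 unpartnered peaks of replicate 1 against 11, 7 and 10 of replicate 2. For replicate 2 they were 12 to 13 Mb on chromosome 10, 59 to 60 Mb on chromosome 15 and 47 to 48 Mb on chromosome 4. These held 12, 20 and 12 pairs, with 10, 6 and 10 unpartnered peaks of replicate 1 against 11, 8 and 1 of replicate 2. Their 3 discordant pairs lay on 2, 2 and 3 replicate 2 peaks, against 3 in each window given for replicate 1. The chromosome 15 window also held 1 discordant pair with replicate 1 higher.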

How the data were processed

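Peak lists of the 2 NR6A1 replicates were used, 1 list per sample. The submitters' processing notes name Bowtie 0.12.7, MACS and mm9 but give them no roles. The control library and the threshold are not given in the sources used here. The values are the score of each peak as deposited by the authors, and its nature as a log-transformed p-value was inferred from its range and from the MACS peak names. Read depth is unknown. Positions are those of mm9 with the first base as 1.

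Peaks were paired by longest overlap (Python 3.11.15, numpy 2.4.6, pandas 2.3.3, and scipy 1.17.1 for Wilson intervals), with the same number of paired replicate 1 peaks, 9190, from bedtools 2.31.1. Distances run between the means of the partners' midpoints. Unpartnered peaks overlap none of the other list. The code was tested on simulated lists with planted ratios. The members, distances and score limits were chosen with earlier results of these data known. Named sites are, per direction, the 6 largest ratios, the best lower score, the 2 nearest to 4-fold on either side, 3 groups with the most members and 2 mixed groups (ties by smaller span), the longest run and the window with the most members (ties by chromosome name, 3 given). The vector samples were not analysed here.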

Additional observations from a re-analysis of the deposited data

How the results depend on the processing

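Alternatives gave 132 values. In 76 the result held (a count to 1.5 times, a share or median inside its 95% interval), 56 moved further, and no width ratio crossed 1. The alternatives in which replicate 2 peaks were paired with replicate 1, neighbours shared no peak, or runs of 8 or more regions of 1 list were left out were chosen after seeing the data. In every alternative run, the replicate 1 share among unpartnered peaks was higher around replicate 1 higher (71.5 to 81.9%) than around replicate 2 higher (39.2 to 55.6%). In each run the nearest pair that was not discordant leaned the same way in over 50% of cases (56.6 to 70.2% and 55.8 to 82.2%). The interval of the 55.8%, with midpoints within 100 bp, was 49.0 to 62.4% and includes 50%. The 82.2%, of 45 pairs at 8-fold, counts neighbours on the same replicate 2 peak, which tend to lean alike by construction. The number of discordant pairs and how close pairs of replicate 2 higher lay together did depend on the settings. For what moved, values are given in the order replicate 1 higher, then replicate 2 higher, unless 1 direction is named, and the cause was not tested beyond what each setting does by construction.

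The number of pairs was 735 and 662 at a 3-fold limit, 67 and 45 at 8-fold and 244 and 206 with midpoints within 100 bp, and 207 for replicate 2 higher with 50% reciprocal overlap. The median width ratio was 1.32 and 0.59 at 3-fold, 1.59 and 0.36 at 8-fold, 1.35 and 0.65 with reciprocal overlap and 1.28 and 0.65 with close midpoints. There, for replicate 2 higher, it was 0.59 with each replicate 2 peak used once and 0.59 when paired from replicate 2. The share with a pair of the same direction nearby was 13.6% and 17.8% at 3-fold, 5.39% and 8.95% without scores at or above 3100, 2.66% and 8.89% within 10 kb and 21.0% and 17.2% within 200 kb. In replicate 2 higher it was 1.93% with reciprocal overlap, 0.971% with close midpoints, 5.35% with each replicate 2 peak used once and likewise 5.35% when paired from replicate 2, 4.44% at 8-fold and 6.94% when neighbours shared no peak. With shared peaks left out it was 2.78% within 10 kb and 12.2% within 200 kb for replicate 2 higher. For replicate 1 higher those 2 values did not change. The share whose nearest discordant pair leaned the same way was 62.9% and 36.7% with reciprocal overlap, where the directions were 60.8% and 39.2% of the discordant pairs. Within 200 kb it was 67.0% of 109 and 67.4% of 92. Within 10 kb it was 71.4% of 14 and 88.9% of 36. The second value at both distances includes neighbours on the same replicate 2 peak, which tend to lean alike by construction. For replicate 2 higher, 32 pairs had a neighbour of the same direction within 10 kb and 62 within 200 kb. With shared peaks left out these were 10 and 44. The share whose nearest discordant pair leaned the same way also moved in single directions. For replicate 1 higher it was 61.2% at 3-fold, 61.5% at 8-fold and 59.2% when paired from replicate 2, where that direction was 52.6%, 59.8% and 56.3% of the discordant pairs. In replicate 2 higher it was 44.2% with close midpoints and 42.8% with each replicate 2 peak used once or when paired from replicate 2, where that direction was 45.8%, 44.3% and 43.7% of the discordant pairs. The nearest pair that was not discordant leaned the same way in 70.1% and 82.2% at 8-fold, in 68.5% for replicate 1 higher within 10 kb, and for replicate 2 higher in 55.8% with close midpoints and 58.6% when neighbours shared no peak. The replicate 1 share of unpartnered peaks was 81.9% and 39.2% within 10 kb and 71.5% and 55.6% within 200 kb. For replicate 1 higher it was 72.8% with reciprocal overlap, 71.8% with close midpoints, 72.8% at 3-fold and 80.1% at 8-fold.

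No paired analysis was possible because values of the vector group were not analysed here, which leaves no second group for the shared replicate numbers. Leaving out a replicate leaves no pair to score, and the work on genes and sequence was not run for want of an mm9 genome. Without reads per peak, a low score cannot be told from a library of low depth or high background at that site.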
